A study of Homo sapiens with 4 samples.

Results

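The genes described here are the death ligand TRAIL and the receptors and adaptors around it: TNFSF10 (TRAIL itself), its receptors TNFRSF10A, TNFRSF10B and TNFRSF10D, the related receptors TNFRSF12A and FAS, the adaptor FADD, the initiator caspase CASP8 and its inhibitor CFLAR. They were picked by symbol, all 9 were found among the 33538 genes of the matrix, and 7 of the 9 reached a mean of 1 CPM over the libraries (CPM is a gene's UMIs divided by all UMIs of the library and scaled to one total). The cells were BT474, an established human breast cancer line positive for estrogen receptor and with HER2 amplification, profiled by droplet single-cell RNA-seq of transcript 3' ends after 4 h of treatment. The DMSO library was the vehicle control, the second library had 100 nM fulvestrant (which blocks the estrogen receptor and has it degraded), the third 200 nM neratinib (an irreversible inhibitor of EGFR, HER2 and HER4), and the fourth both drugs at those doses. Each group was 1 library of 1 cell line at 1 time point, so nothing below has a replicate check and no test between groups was made. Bracketed ranges are 95% intervals for counting error only.

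TRAIL is a membrane or shed ligand of the tumor necrosis factor (TNF) family. When it gathers TNFRSF10A (death receptor 4) or TNFRSF10B (death receptor 5), FADD binds the receptor tails and brings in CASP8, whose activation starts the caspase cascade, while CFLAR (FLIP) occupies the same complex and holds CASP8 in check. TNFRSF10D is a decoy with a truncated death domain, FAS is the death receptor of a separate ligand, and TNFRSF12A (Fn14) is the receptor of TWEAK and has no death domain. TNFSF10 is a known target of FOXO transcription factors, which the PI3K and AKT kinases downstream of HER2 keep out of the nucleus.

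Since TNFSF10 is the gene of the group with the widest change below, the 250 bases before its RefSeq start are shown, on the minus strand of GRCh38.p14 at chr3:172523431-172523680. Capitals mark a forkhead core, AAACAA, and a TATA box, TATAAA.
TNFSF10: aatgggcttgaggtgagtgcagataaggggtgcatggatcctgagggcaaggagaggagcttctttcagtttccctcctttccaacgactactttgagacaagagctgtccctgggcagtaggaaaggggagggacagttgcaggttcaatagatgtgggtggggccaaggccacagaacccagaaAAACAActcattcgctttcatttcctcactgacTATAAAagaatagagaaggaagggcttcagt
The forkhead core began 64 bases before the start and the TATA box 31 bases before it. Counting either strand, AAACAA was in 15.9% of the 35116 RefSeq promoter windows of the same length and TATAAA in 10.7%. The longer forkhead motif GTAAACA, whose last letters overlap the core (2.98% of windows), and the SP1 box GGGCGG (42.6%) had no match in the TNFSF10 window. These motifs were chosen with the expression results known, and a match is a description of letters only. RefSeq windows were at hand for 5 of the 9 genes, TNFSF10, FAS, FADD, CASP8 and CFLAR. Neither marked motif was particular to TNFSF10. The forkhead core also had a match at start 1 of 3 for CASP8 and at start 3 of 4 for CFLAR. The TATA box also had a match at start 2 of 3 for CASP8. FAS and FADD had neither motif. An estrogen response element was searched as well and had no match in any of these windows.

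The libraries were of like depth. Cells with at least 5000 UMIs and 500 genes numbered 3485 to 4301 per library, 15169 in all, with median depths of 22007 to 23010 UMIs, and 23 of their 15146 barcode sequences occurred in more than 1 library. All 8 luminal epithelial markers were detected in each library, at a sum of 7889 CPM for DMSO, 7578 for fulvestrant alone, 5259 for neratinib alone and 4616 for the pair of drugs. Fibroblast markers summed to 10.2 to 12.4 CPM with COL1A2 and PDGFRB at 0 in every library. Immune markers summed to 0.380 to 0.494 CPM with CD3E and NKG7 at 0, and endothelial markers to 1.78 to 2.49 CPM. Nearly all of each sum came from a single gene, namely COL1A1 (10.2 to 12.4 CPM), LYZ (0.351 to 0.494) and VWF (1.72 to 2.44). Mitochondrial transcripts took a median 16.2% and 16.7% of a cell's UMIs in DMSO and fulvestrant but 21.1% in both neratinib libraries. With totals set equal, the median gene then lay 0.16 log2 units lower in neratinib than in DMSO, and 0.15 lower with both drugs than in DMSO or than in fulvestrant. It differed by 0.00 between fulvestrant and DMSO and by 0.01 between both drugs and neratinib alone. The ratios of FADD, CASP8 and CFLAR in neratinib against DMSO are therefore also given relative to the median gene. Other ratios in the neratinib pairs are not adjusted for it.

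TNFSF10 was low without neratinib and among the most increased genes with it. The DMSO library had 693 TNFSF10 UMIs, or 6.76 CPM [6.27, 7.28]. Fulvestrant had 7.62 CPM [7.04, 8.23], neratinib 48.3 [46.8, 49.8] and both drugs 41.1 [39.8, 42.4]. Both neratinib libraries were far above both others, whose intervals overlapped each other. TNFSF10 was 7.15-fold higher in neratinib than in DMSO, a log2 ratio of 2.84 [2.72, 2.96] and the 7th highest of 12136 genes with a mean CPM of at least 1. The disjoint pair, both drugs against fulvestrant, gave 5.39-fold, a log2 ratio of 2.43 [2.31, 2.55] and rank 15. Both drugs against DMSO, a pair that shares its control with the first, gave a log2 ratio of 2.60 [2.49, 2.72].

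**Figure D1:**
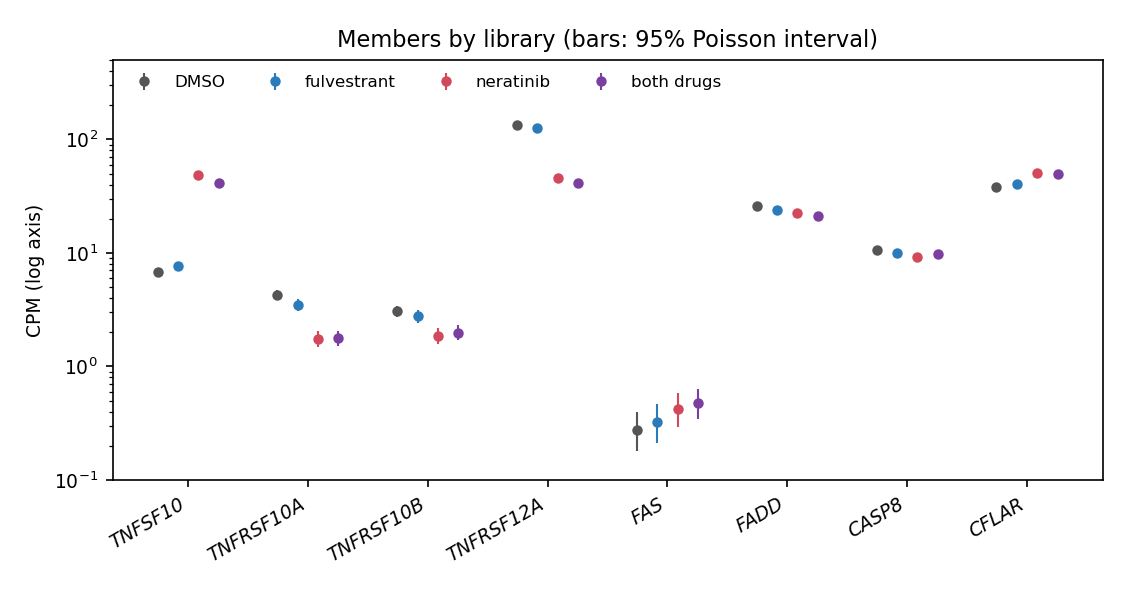
Level of each gene in CPM (log axis) in the 4 libraries, with 95% Poisson intervals as bars. TNFSF10 lies at 6.76 and 7.62 CPM without neratinib and at 48.3 and 41.1 with it, TNFRSF12A at 134 and 127 against 46.1 and 41.2, and TNFRSF10D, with no UMI in any library, is not drawn.

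Fulvestrant was accompanied by little difference in TNFSF10 on its own and a lower level on top of neratinib. The log2 ratio of fulvestrant against DMSO was 0.17 [0.01, 0.33], and that of both drugs against neratinib was -0.23 [-0.30, -0.17], neither of which reached the size used here to call a gene higher or lower (a log2 ratio of at least 0.32 in either direction with an interval off 0). Their difference, the departure of the combination from the sum of the single-drug log2 effects, was -0.41 [-0.57, -0.24]. TNFSF10 varied between cells beyond Poisson, with a variance over mean of 1.06 to 1.29 in thinned cells, so these intervals are too narrow. The median of the 12136 genes with a mean CPM of at least 1 departed by 0.01. TNFSF10 was the 13th lowest of 7239 genes with a mean CPM of at least 10. In cells with under 15%, 15 to 20% and over 20% mitochondrial UMIs, fulvestrant against DMSO gave 0.18, 0.22 and -0.15 [-0.51, 0.22]. Both drugs against neratinib gave -0.31, -0.19 and -0.25 in the same order.

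The TNFSF10 difference was spread over many cells. A UMI of TNFSF10 was found in 12.7% of cells under DMSO and 14.1% under fulvestrant, but in 55.4% under neratinib and 50.7% under both drugs. After thinning each cell to 5000 UMIs the shares were 3.58% [3.05, 4.18], 3.76% [3.15, 4.45], 20.4% [19.1, 21.8] and 17.1% [15.9, 18.3]. Cells with 5 or more TNFSF10 UMIs before thinning numbered 5 (0.116%) in DMSO, 4 (0.115%) under fulvestrant, 129 (3.68%) under neratinib and 97 (2.50%) with both drugs. The highest single cells held 17, 11, 28 and 16 UMIs in that order, so cells of high TNFSF10 content also existed without neratinib. The tenth of cells with most TNFSF10 held 83.1% of its UMIs in DMSO and 41.1% in neratinib, a share that also depends on how many cells are at 0.

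Free TNFSF10 RNA, read in barcodes of 1 to 100 UMIs, followed the cells of its library, at 7.05 CPM [4.94, 9.76] in DMSO, 5.96 [3.93, 8.68] under fulvestrant, 35.9 [30.3, 42.3] under neratinib and 28.5 [24.1, 33.5] with both drugs. Barcodes of 20 to 100 UMIs, a range chosen after seeing the data, had median contents of 35 to 48 UMIs. If each cell took up that much free RNA, 0.0233% to 0.137% of cells would carry a free TNFSF10 UMI. The shares measured in cells were far higher. The assumed content depends on the range chosen, and uptake by cells was not measured.

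**Figure D2:**
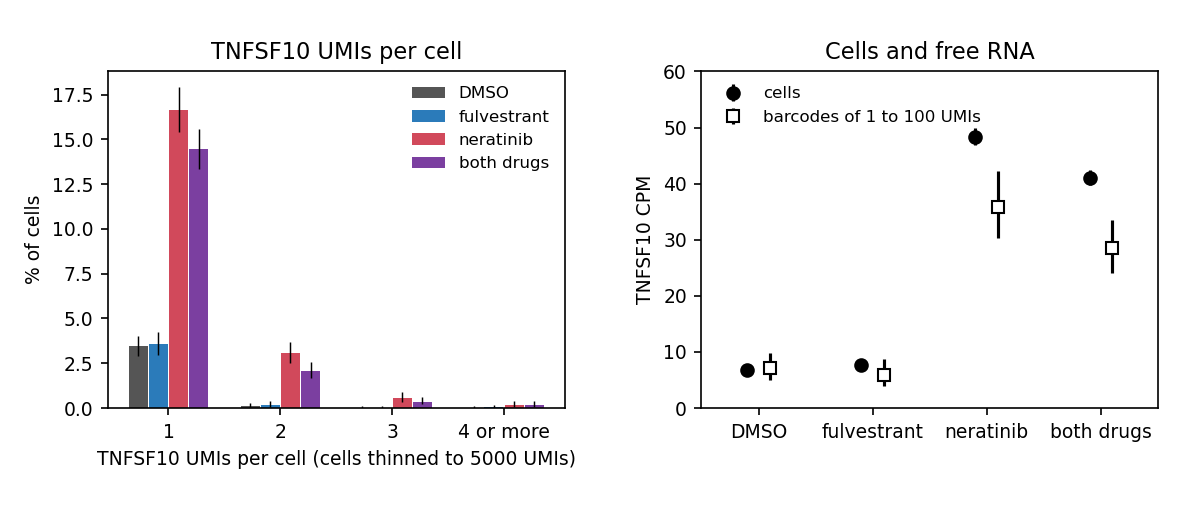
Left, percent of cells with 1, 2, 3 or 4 and more TNFSF10 UMIs after thinning each cell to 5000 UMIs, with 95% Clopper-Pearson intervals. Right, TNFSF10 CPM in cells (filled) and in barcodes of 1 to 100 UMIs (open) with 95% Poisson intervals, where both measures are higher in the neratinib libraries and the open points lie below the filled ones there.

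Within the libraries, TNFSF10 was higher in cells scored as G1 than in those scored as S or G2M. In DMSO it stood at 8.74 CPM in G1, 6.12 in S and 4.45 in G2M, and in neratinib at 64.3, 41.9 and 29.7 CPM. The ratio of neratinib to DMSO was nonetheless alike across phases, with log2 values of 2.88 [2.73, 3.03], 2.78 [2.51, 3.05] and 2.74 [2.48, 3.00]. The share of cells scored as G1 was 53.7% under DMSO, 54.2% under fulvestrant, 56.7% under neratinib alone and 58.3% under both. The lower level with both drugs than with neratinib was -0.31 [-0.39, -0.22] in G1, -0.22 [-0.39, -0.06] in S and -0.11 [-0.25, 0.04] in G2M, and the phases' difference was not tested.

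TNFSF10 was also higher in cells with more mitochondrial transcripts, in each of the 4 libraries. From under 15% over 15 to 20% to over 20% mitochondrial UMIs, TNFSF10 went from 5.53 over 6.56 to 11.2 CPM in DMSO and from 31.0 over 40.2 to 54.3 CPM in neratinib. Within those 3 strata the log2 ratio of neratinib to DMSO was 2.48 [2.10, 2.86], 2.62 [2.45, 2.79] and 2.27 [2.02, 2.53], below the 2.84 of all cells in each. Both drugs against fulvestrant gave 1.99, 2.21 and 2.16.

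**Figure D3:**
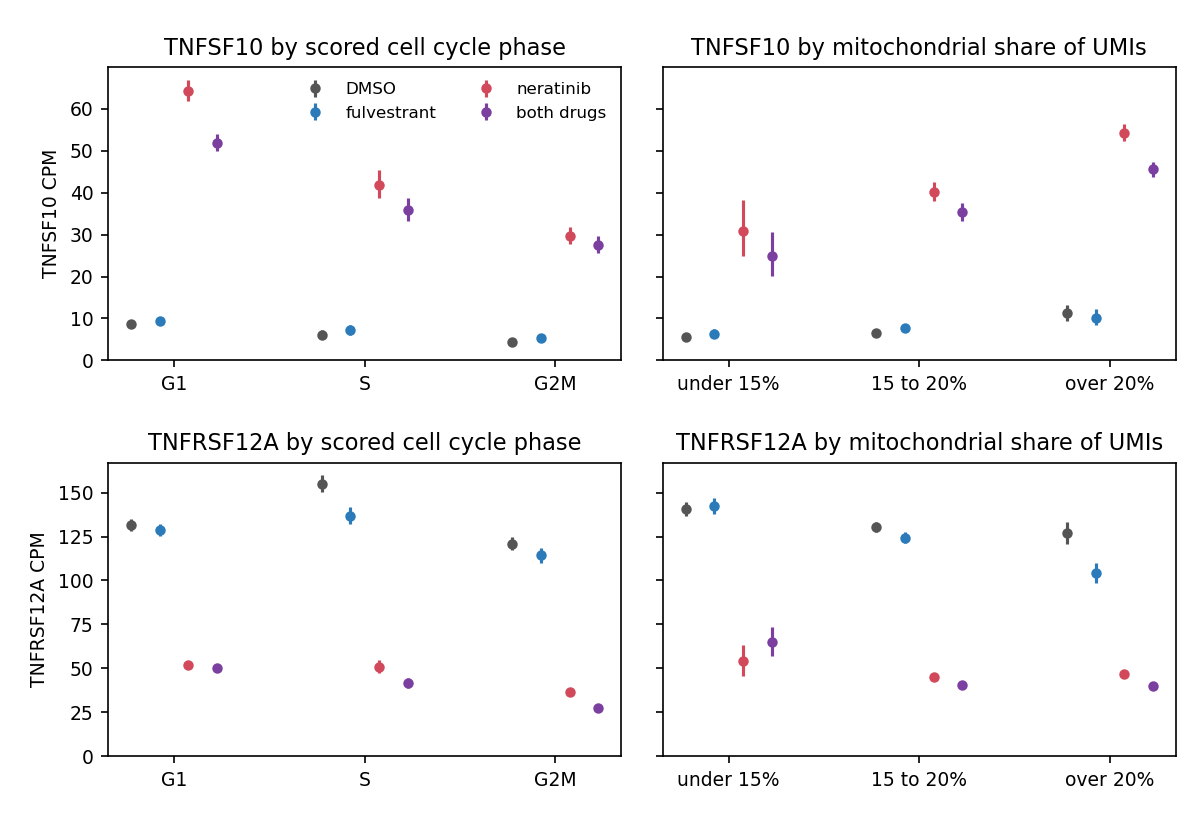
CPM of TNFSF10 (top) and TNFRSF12A (bottom) in each library by scored cell cycle phase (left) and by mitochondrial share of a cell's UMIs (right), with 95% Poisson intervals as bars. In every phase and stratum both neratinib libraries lie above the others for TNFSF10 and below them for TNFRSF12A.

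The TRAIL receptors were low and lay lower with neratinib. TNFRSF10A had 441 UMIs or 4.30 CPM in DMSO, 292 or 3.49 CPM in fulvestrant, 145 or 1.75 CPM in neratinib and 161 or 1.77 CPM with both drugs. Both neratinib libraries were below both others. TNFRSF10A was 2.46-fold lower in neratinib than in DMSO, a log2 ratio of -1.30 [-1.58, -1.03], and 1.98-fold lower with both drugs than with fulvestrant, -0.98 [-1.27, -0.70]. Fulvestrant against DMSO gave -0.30 [-0.52, -0.08], just short of the size rule, and both drugs against neratinib 0.02 [-0.32, 0.35]. By phase, fulvestrant against DMSO gave -0.19 in G1, -0.18 in S and -0.59 [-1.01, -0.18] in G2M, the last past the size rule. With under 15%, 15 to 20% and over 20% mitochondrial UMIs it gave -0.25, -0.39 [-0.70, -0.09] and 0.09. Only the middle stratum passed the rule, and no share over all genes is given within phases or strata.

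TNFRSF10B had 315 UMIs or 3.07 CPM in DMSO, 231 or 2.76 CPM in fulvestrant, 155 or 1.87 CPM in neratinib and 181 or 1.99 CPM with both drugs. The order was that of TNFRSF10A with a narrower range. Neratinib against DMSO was 1.65-fold lower, -0.72 [-1.0, -0.44], and both drugs against fulvestrant -0.47 [-0.76, -0.19], a call that was lost in cells with at most 20% mitochondrial UMIs (-0.36 [-0.76, 0.02]). A UMI of TNFRSF10A was seen in 3.95% to 9.42% of cells and one of TNFRSF10B in 4.36% to 7.04%. Within phases, TNFRSF10A was lower in neratinib than in DMSO by log2 ratios of -1.48, -1.01 and -1.25 in G1, S and G2M, and TNFRSF10B by -0.40, -0.82 and -1.31. In the stratum under 15% mitochondrial UMIs both intervals reached above 0.

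The decoy receptor TNFRSF10D had no UMI in any of the 15169 cells. A count of 0 allows a share of cells with a UMI of up to 0.0198% over all libraries and of 0.0698% to 0.0861% in a single one. The related decoy TNFRSF10C had 3, 3, 0 and 1 UMIs in DMSO, fulvestrant, neratinib and both drugs.

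With ligand and receptors differing in opposite directions, their ratio within a library, which no scaling between libraries touches, changed further than either. There were 2.20 TNFSF10 UMIs per TNFRSF10B UMI in DMSO [1.92, 2.52], 2.76 under fulvestrant [2.37, 3.22], 25.9 under neratinib [22.0, 30.6] and 20.7 under both [17.8, 24.1]. Among the receptors, TNFRSF10A UMIs per TNFRSF10B UMI were 1.40, 1.26, 0.935 and 0.890 in that order.

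Whether single cells with TRAIL differed in receptor content was not detectable at this depth. After thinning, 3.90% of DMSO cells with a TNFSF10 UMI also had one of TNFRSF10A or TNFRSF10B, against 3.62% of those without. The pairs of shares were 2.29% and 2.89% under fulvestrant, 2.23% and 1.79% under neratinib, and 1.66% and 1.52% with both drugs. The intervals overlapped within each library and rested on 3 to 16 cells with both.

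TNFRSF12A, the TWEAK receptor, was the most abundant of the 9 by UMIs without neratinib and was lower with it. Its level was 134 CPM under DMSO, 127 under fulvestrant, 46.1 under neratinib alone and 41.2 under both. The 2 neratinib libraries were again apart from the others. TNFRSF12A was 2.90-fold lower in neratinib than in DMSO, a log2 ratio of -1.53 [-1.59, -1.48], and 3.08-fold lower with both drugs than with fulvestrant, -1.62 [-1.68, -1.57]. Over all cells, fulvestrant against DMSO gave -0.08 [-0.11, -0.04] and both drugs against neratinib -0.16 [-0.23, -0.10], both below the size rule. By phase, both drugs against neratinib gave -0.04 in G1, -0.29 in S and -0.41 [-0.54, -0.28] in G2M, the last past the rule. A TNFRSF12A UMI was seen in 84.3% of cells under DMSO and 83.4% under fulvestrant, against 47.7% under neratinib and 45.4% under both.

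TNFRSF12A varied between cells more than the other genes. Its variance over its mean in thinned cells was 2.01, 2.69, 2.00 and 1.99 across the libraries, where sampling alone gives 1, while the other detected genes were at 0.972 to 1.29. Single cells held up to 79 UMIs in DMSO and 184 in fulvestrant. Cells with 5 or more UMIs made up 23.9% of DMSO and 4.45% of neratinib cells. By phase the log2 ratio of neratinib to DMSO was -1.35 in G1, -1.61 in S and -1.73 in G2M, and by mitochondrial stratum -1.38, -1.54 and -1.45. TNFSF12, which codes for TWEAK, had 4 UMIs in DMSO and 1 in each other library.

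FAS was near the lower limit of what these libraries can measure. It had 28 UMIs under DMSO, 27 under fulvestrant, 35 under neratinib and 43 under both, or 0.273, 0.323, 0.422 and 0.472 CPM. Both drugs against DMSO passed the size rule at a log2 ratio of 0.79 [0.07, 1.53], and the call was lost in cells with at most 20% mitochondrial UMIs (0.80 [-0.13, 1.70]). Neratinib against DMSO gave 0.63 [-0.13, 1.40]. FASLG, its ligand, had 0 UMIs in every library.

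FADD and CASP8, which join the receptor to the caspase cascade, lay close to the median gene in neratinib against DMSO. FADD stood at 26.0 CPM under DMSO, 24.1 under fulvestrant, 22.4 under neratinib and 21.1 under both, and CASP8 at 10.6, 10.1, 9.23 and 9.78 CPM. Neratinib against DMSO gave -0.22 [-0.31, -0.13] for FADD and -0.20 [-0.34, -0.07] for CASP8. Relative to the median gene of that pair these are -0.06 and -0.04, and neither gene passed the size rule in any of the 5 pairs over all UMIs of all cells. With each cell thinned to 5000 UMIs, CASP8 was called lower in neratinib than in DMSO (-0.34 [-0.63, -0.06]) and FADD lower with both drugs than in DMSO (-0.33 [-0.52, -0.14]). FADD was also called lower in that pair among S cells (-0.46) and G2M cells (-0.33).

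CFLAR, the inhibitor of CASP8, was modestly higher with neratinib. Its level was 38.4 CPM under DMSO, 40.6 under fulvestrant, 50.2 under neratinib alone and 49.5 under both, and it had a UMI in 54.8%, 56.5%, 62.2% and 63.2% of cells. Neratinib against DMSO gave a 1.31-fold higher level, 0.38 [0.32, 0.45], or 0.55 relative to the median gene. Both drugs against fulvestrant gave 0.28 [0.22, 0.35], below the size rule, but 0.44 and past it under median-of-ratios scaling. Free of scaling, there were 3.62 CFLAR UMIs per CASP8 UMI in DMSO [3.39, 3.88], 4.03 under fulvestrant [3.74, 4.35], 5.43 under neratinib [5.03, 5.88] and 5.06 with both drugs [4.71, 5.44]. By phase the log2 ratio of neratinib to DMSO was 0.39 in G1, 0.21 in S, which missed the size rule, and 0.42 in G2M.

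**Figure D4:**
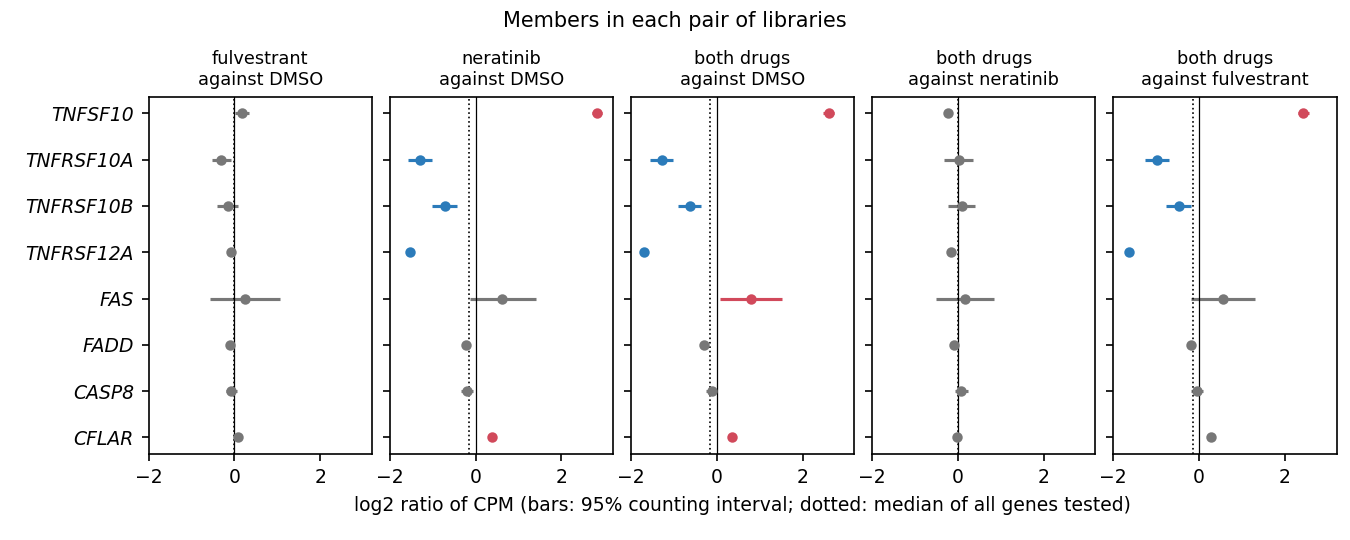
Log2 ratio of CPM of the 8 detected genes in the 5 pairs of libraries, with 95% counting intervals as bars, a dotted line at the median of all genes tested, and called genes in red (higher) or blue (lower). TNFSF10 is at 2.43 to 2.84 in the pairs with neratinib against none, while TNFRSF10A, TNFRSF10B and TNFRSF12A lie below 0 there.

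Counted over the 9 genes, neratinib against DMSO had 2 higher (TNFSF10, CFLAR) and 3 lower (TNFRSF10A, TNFRSF10B, TNFRSF12A). Of the 12136 genes with a mean CPM of at least 1, 13.6% were called higher in that pair and 33.3% lower. Counts of this size are thus not far from those of genes at large. These shares, and those below, leave out FAS and TNFRSF10D, which were under 1 CPM. Under median-of-ratios scaling the shares were 21.2% and 20.6%, and FAS was called higher as well (0.79 [0.03, 1.56]), while the other calls among the 9 were the same. At 1.5-fold 1 of the 9 was higher, TNFSF10, beside 7.03% of all genes, and the same 3 were lower, beside 15.1%. Both drugs against fulvestrant had 1 higher and 3 lower, beside 13.8% and 32.4% of all genes (21.6% and 20.8% under median-of-ratios scaling). Both drugs against DMSO had 3 higher, FAS included, and 3 lower. Among the 7 genes above 1 CPM these were 2 and 3, beside 14.9% and 33.3% of all genes (22.9% and 21.9% with that scaling). Over all cells, fulvestrant against DMSO had none in either direction, beside 1.23% and 1.8% of all genes. Both drugs against neratinib also had none, beside 1.57% and 2%. The median log2 ratio of the 7 genes above 1 CPM was -0.22 for neratinib against DMSO and -0.16 over all genes.

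The genes most like TNFSF10 over the 4 libraries, by the Euclidean distance of centered log2 CPM among 7226 genes with a mean CPM of at least 10 (the 7239 without the 13 mitochondrial genes), were CALCOCO1 (0.33), KLHL24 (0.47), CREBRF (0.48), PIK3IP1 (0.50) and HBP1 (0.52). Their log2 ratios of neratinib to DMSO were 2.38, 2.23, 2.27, 2.24 and 2.21, all under the 2.84 of TNFSF10. With both drugs against neratinib they lay between -0.01 and 0.17, where TNFSF10 was at -0.23. The genes most like TNFRSF12A were RGS19 (0.07), CCDC107 (0.09), TUBB2A (0.10), BASP1 (0.11) and CALML5 (0.11), each lower in neratinib than in DMSO by -1.64 to -1.45. These rankings rest on 4 libraries.

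Around these genes, few other TNF family ligands were expressed. Of 17 listed, 2 reached a mean CPM of 1. TNFSF13B, the B cell factor BAFF, was at 0.771 CPM under DMSO, 0.98 under fulvestrant, 1.95 under neratinib and 2.37 under both. TNFSF15 (TL1A) was at 4.88, 2.38, 2.13 and 0.944 CPM in the same order, and so was lower with each drug and lowest with both. Its log2 ratio was -1.04 [-1.28, -0.80] for fulvestrant against DMSO, -1.18 [-1.57, -0.80] for both drugs against neratinib and -1.19 [-1.45, -0.94] for neratinib against DMSO. TNF itself had 1 UMI in each of 3 libraries and 0 with both drugs.

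Of 24 other TNF receptors 8 were measured, and 5 were lower and 0 higher in neratinib than in DMSO, with a median of -0.56. Over all genes of that pair 33.3% were lower and 13.6% higher. RELT went from 10.9 CPM in DMSO to 1.94 in neratinib, a log2 ratio of -2.48 [-2.73, -2.24]. TNFRSF21 (death receptor 6) was lower by -1.76, TNFRSF19 by -0.73 and LTBR, the lymphotoxin beta receptor, by -0.63. Under median-of-ratios scaling the same 5 were lower and TNFRSF13C was called higher, beside 20.6% and 21.2% of all genes. Both drugs against fulvestrant had 6 lower and 0 higher, beside 32.4% and 13.8% of all genes. With median-of-ratios scaling that pair had 5 lower and 1 higher, beside 20.8% and 21.6%. With fulvestrant against DMSO none was called.

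The adaptors and regulators of these receptors had 15 of 21 members measured, of which 6 were lower and 0 higher in neratinib than in DMSO (median -0.29), and 5 against 1 with median-of-ratios scaling. The shares over all genes were 33.3% lower and 13.6% higher, and 20.6% and 21.2% with that scaling, so 6 of 15 is near the background. TRAF3 was lower by a log2 ratio of -1.63 [-1.94, -1.33], TRAF4 by -0.79 and TRAF5 by -0.76, all 3 being adaptors of TNF receptors. PEA15, a death effector domain protein, was lower by -0.71. RIPK3, the kinase of necroptosis, had 0 UMIs in all libraries.

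Downstream, of 21 caspases, their inhibitors and mitochondrial factors, 20 had a unique symbol in the matrix and 19 were measured. Of the 19, 11 were lower and 1 higher in neratinib than in DMSO (median -0.37). The shares of all genes in that pair were 33.3% and 13.6%. With median-of-ratios scaling the counts were 7 lower, 2 higher, beside 20.6% and 21.2% of all genes. CYCS, cytochrome c, went from 385 to 228 CPM (-0.75 [-0.78, -0.73]). The caspase inhibitors XIAP and BIRC6 were lower by -0.63 and -0.64. APAF1, the scaffold of the apoptosome, was higher by 0.60 [0.46, 0.74]. BID, which CASP8 cleaves, was at 47.0, 42.6, 31.3 and 31.8 CPM across the libraries.

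Among NF-kappaB factors and targets, 15 of 19 were measured, with 7 lower and 2 higher in neratinib than in DMSO (median -0.30), and 6 against 3 with median-of-ratios scaling, beside 33.3% and 13.6% of all genes in the first and 20.6% and 21.2% in the second. RELB was lower by -1.27, the survival gene IER3 by -1.11 and BCL3 by -0.95, while NFKB2 was higher by 0.86. Of 12 transcription factors known to act on TRAIL or its receptors, 11 were measured, with 3 lower and 2 higher, beside the same 33.3% and 13.6% of all genes (median -0.17, beside -0.16 for all genes). EGR1, an immediate early factor, went from 61.5 to 3.75 CPM, a log2 ratio of -4.04 [-4.21, -3.87], and DDIT3 (CHOP), which acts on TNFRSF10B, was lower by -0.75. FOXO3 went from 69.1 to 119 CPM (0.79 [0.74, 0.83]) and FOXO1 from 0.966 to 1.80 CPM (0.89 [0.52, 1.28]). These are transcript levels and do not measure where the factors are in the cell.

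The other pairs of libraries gave like counts for neratinib and few for fulvestrant. Both drugs against fulvestrant had 7 of the adaptors lower and 0 higher, 9 of the downstream genes lower and 2 higher (CASP9, APAF1), 7 of the NF-kappaB genes lower and 3 higher (NFKB2, NFKBIA, IKBKB), and 4 of the transcription factors lower (DDIT3, MYC, IRF1, EGR1) and 2 higher (FOXO1, FOXO3). Over all genes of that pair 32.4% were lower and 13.8% higher. Under median-of-ratios scaling the pair had 5 adaptors lower and 2 higher, and 6 downstream genes lower and 2 higher. It had 5 NF-kappaB genes lower and 3 higher, and 3 transcription factors lower and 2 higher. Of all genes 20.8% were lower and 21.6% higher with that scaling. Both drugs against DMSO, sharing its control with neratinib against DMSO, had 6 receptors lower and 1 higher (TNFRSF13C), 7 adaptors lower, 11 downstream genes lower and 2 higher, 7 NF-kappaB genes lower and 3 higher, and 4 transcription factors lower and 2 higher, beside 33.3% of all genes lower and 14.9% higher. With median-of-ratios scaling both drugs against DMSO had 5 receptors lower and 2 higher, 5 adaptors lower and 2 higher, and 7 downstream genes lower and 3 higher. It had 5 NF-kappaB genes lower and 3 higher, and 3 transcription factors lower and 2 higher, beside 21.9% and 22.9% of all genes. In fulvestrant against DMSO the called genes of all 6 lists were TNFSF15 and MYC, both lower, beside 1.8% of all genes lower and 1.23% higher. In both drugs against neratinib they were TNFSF15, BCL3 and MYC as lower, and RELT and FOXO1 as higher, beside 2% and 1.57% of all genes.

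**Figure D5:**
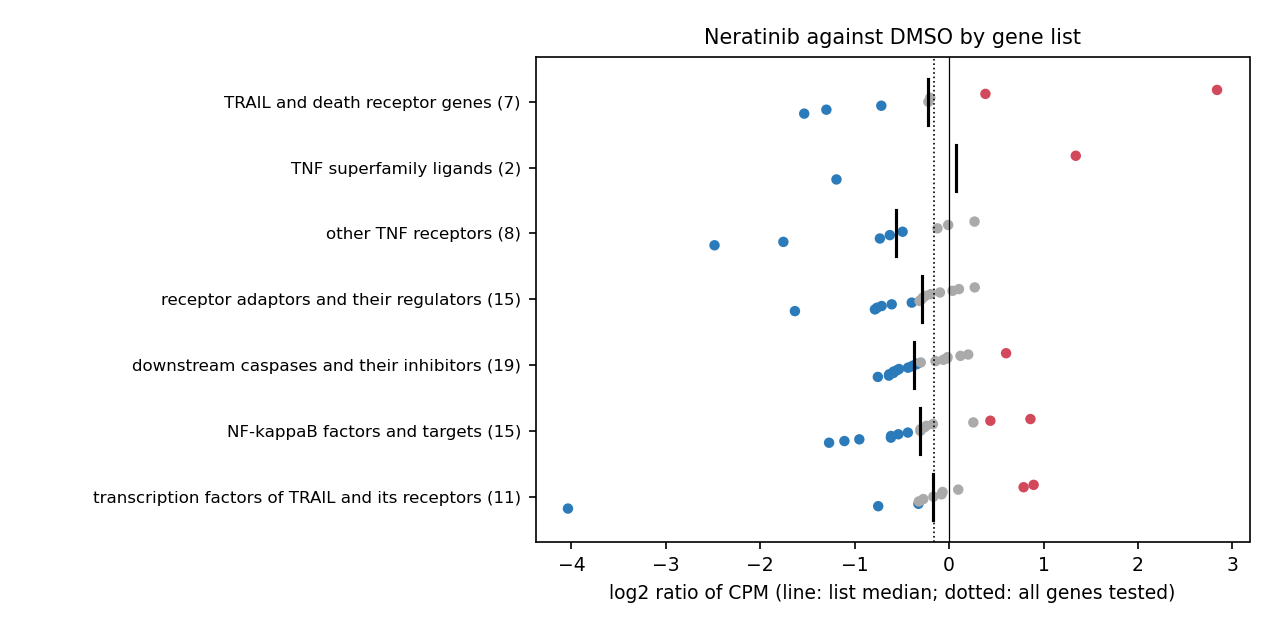
Log2 ratio of neratinib to DMSO for each measured gene of the TRAIL group and of the 6 pathway lists, 1 point per gene (red called higher, blue called lower, gray not called), with the number measured in parentheses, each list's median as a bar and the median of all genes dotted. The other TNF receptors have the lowest median, at -0.56, and EGR1 is the lowest point at -4.04.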

How the data were processed

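Values were deposited as UMI counts, whole numbers per gene and barcode, made by the authors with Cell Ranger 3.1.0 on hg19, per the submitters' processing notes. The gene identifiers, however, largely match GRCh38, and this conflict was not resolved. A barcode's closing number was taken as the library whose sample title opens with that number, which no other label states. Cells were barcodes with at least 5000 UMIs and 500 genes. No doublets were called or removed. UMIs were summed per library and divided by the total (CPM), with no scaling to gene length since 3' ends were counted, so levels of different genes are compared only as UMIs.

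Ratios have exact conditional binomial intervals, CPM exact Poisson intervals, shares Clopper-Pearson intervals and the departure from additivity an interval from 4 Poisson counts, at 95%. A count of 0 was read as allowing 3 counts. The code for ratios, intervals and calls was run on simulated Poisson counts, the model that the intervals assume. That run checks the code only. It does not cover spread between cells beyond Poisson, such as that of TNFRSF12A and, to a lesser degree, of TNFSF10. A gene was called higher or lower at a log2 ratio of 0.32 or more in size with the interval off 0. Phases came from scanpy 1.11.5. Genes with a duplicated symbol (48) stayed separate by identifier in the totals and in the shares over all genes. They were not used in the lists, where a gene needed a unique symbol in the matrix. Python 3.11.15, numpy 2.4.6, scipy 1.17.1, pandas 2.3.3 and matplotlib 3.10.9 were used.

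The members and lists were chosen with earlier results of these data known. All 9 members are named. In each of the 6 further lists up to 4 called genes with the greatest absolute ratio of neratinib to DMSO are named. Other genes of those lists (TNF, FASLG, TNFSF12, TNFRSF10C, TNFRSF13C, RIPK3, BID, CASP9, NFKBIA, IKBKB, MYC and IRF1) were named after their values were seen. Alternatives were 20% as a mitochondrial ceiling, a minimum of 10000 UMIs, median-of-ratios scaling, totals without the 13 mitochondrial genes, thinning to 5000 UMIs per cell, a mean over cells, a 1.5-fold size rule and a minimum mean of 10 CPM.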

Additional observations from a re-analysis of the deposited data

How the results depend on the processing

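No called value of a member changed sign under the alternatives run. No paired analysis was possible because each group was 1 library. TNFSF10 kept its direction in every pair. In cells with at most 20% mitochondrial UMIs its log2 ratio was 2.68 in neratinib against DMSO, 2.48 in both drugs against DMSO and 2.26 in both against fulvestrant. Under median-of-ratios scaling the same pairs gave 3.00, 2.75 and 2.58. Thinned to 5000 UMIs per cell, both drugs gave 2.45 against DMSO and -0.31 against neratinib. These counts of members called moved by more than 1.5 times. With the 20% ceiling, 1 was lower in fulvestrant than in DMSO, TNFRSF10A at -0.35, beside 1.85% of all genes. At 1.5-fold, 1 was higher in neratinib than in DMSO, since CFLAR dropped out, beside 7.03% of all genes. With a mean of at least 10 CPM required, 1 was lower in neratinib against DMSO, in both drugs against DMSO and in both drugs against fulvestrant, since TNFRSF10A and TNFRSF10B fall below that level. In both drugs against fulvestrant, 2 were higher under median-of-ratios scaling and without the mitochondrial genes in the total, and 3 when thinned, CFLAR being added each time and FAS when thinned. The share of all genes called higher there was 21.6% with that scaling and 17.1% without the mitochondrial genes, against 13.8% as reported. No share over all genes is given for thinned cells or for the 10 CPM minimum. Counts under those settings therefore cannot be set against genes at large. Smaller moves were FAS called higher in neratinib against DMSO under median-of-ratios scaling (3 higher) and not called in both drugs against DMSO with the 20% ceiling or the 10 CPM minimum (2 higher). Of all genes 21.2% were higher in the former pair with that scaling and 15.6% in the latter with the ceiling. CFLAR was not called in both drugs against DMSO at 1.5-fold (2 higher, beside 7.94% of all genes). Thinning added CASP8 as lower in neratinib against DMSO and FADD as lower in both drugs against DMSO (4 lower in each). TNFRSF10B was not called lower in both drugs against fulvestrant when thinned, at 1.5-fold or with the ceiling (2 lower in each). Of all genes 14.6% were lower in that pair at 1.5-fold and 27.9% with the ceiling. Of the ratios of the other detected members, 171 stayed within the counting interval of the reported value and 39 left it. The depth limits FAS, TNFRSF10D and the 2 TRAIL receptors most.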
